A study of Mus musculus with 8 samples.

Results

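The genes described here are 10 genes of MHC class I antigen presentation: the heavy chains H2-K1, H2-D1 and H2-T23, the light chain B2m, the peptide transport genes Tap1, Tap2 and Tapbp, the immunoproteasome subunits Psmb8 and Psmb9, and the class I transactivator Nlrc5. They were taken as a named list that was chosen with earlier results of these data known. Their 12 non-control probes were found through the RefSeq accession of each probe among 55681 probes. All 10 had a probe well above background on all 8 arrays, so all 10 were among the 24022 features tested. Hippocampal RNA came from 3-month-old mice, 4 Ts1Cje and 4 wild-type, labelled C57BL6/J and described as pairs of Ts1Cje mice and disomic littermates. Ts1Cje mice model Down syndrome. They carry an extra copy of the distal end of chromosome 16 on a translocation that has disrupted 1 copy of Sod1 and removed the end of 1 chromosome 12. The labels name no pooling and no sex, and p-values measure the spread between these samples.

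MHC class I molecules hold peptides from proteins made inside the cell and show them at the cell surface. The peptides are cut by the proteasome, carried into the endoplasmic reticulum by the Tap1 and Tap2 transporter, and loaded on a heavy chain paired with B2m with the help of Tapbp. Type I and type II interferons raise the transcription of these genes through Jak kinases and the factors they activate, among them Stat2, Irf9 and Irf1. In brain, class I transcripts are known from endothelium and microglia and, at lower levels, from neurons. The receptor chains Ifnar1, Ifnar2, Ifngr2 and Il10rb lie side by side on chromosome 16 in the segment that Ts1Cje mice carry in 3 copies. None of the class I genes does: B2m is on chromosome 2, Nlrc5 on chromosome 8 and the others on chromosome 17. The question was whether the class I genes follow the extra receptor copies.

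Class I promoters carry letters that interferon and constitutive factors can bind. The stretches below show where these lie in H2-K1, H2-D1, B2m, H2-T23 and Tap1. Sequences are those of RefSeq on GRCm38.p6, which held 8 of the 10 genes (not Tap2 or Nlrc5), read 5′ to 3′ on the strand of the gene. Capitals mark a kappa B core (GGGA and CC with 4 bases of any kind between), an interferon-stimulated response element (GAAA and GAAA with 2 bases between, or the spelling GAANNGAAA in H2-K1 and H2-D1), a cyclic AMP response element core (TGACG) and a Y box (CCAAT), each on either strand.
H2-K1, chr17:34000353-34000464, minus strand: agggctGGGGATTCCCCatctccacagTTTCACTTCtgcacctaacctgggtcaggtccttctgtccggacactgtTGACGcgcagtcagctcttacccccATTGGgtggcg
H2-D1, chr17:35262917-35263051, plus strand: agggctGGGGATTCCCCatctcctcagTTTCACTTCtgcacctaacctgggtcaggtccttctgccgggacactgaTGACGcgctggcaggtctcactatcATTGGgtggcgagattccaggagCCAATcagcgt
B2m, chr2:122147542-122147644, plus strand: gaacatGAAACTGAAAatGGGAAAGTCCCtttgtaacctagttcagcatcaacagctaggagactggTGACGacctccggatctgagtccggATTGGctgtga
H2-T23, chr17:36032743-36032831, minus strand: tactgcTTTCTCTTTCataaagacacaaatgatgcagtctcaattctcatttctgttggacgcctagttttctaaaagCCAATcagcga
Tap1, chr17:34187328-34187480, plus strand: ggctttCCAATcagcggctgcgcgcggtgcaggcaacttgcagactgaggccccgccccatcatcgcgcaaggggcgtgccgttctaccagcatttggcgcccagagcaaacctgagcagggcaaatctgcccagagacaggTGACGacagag

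In windows of 300 bases, from 250 before to 50 after the annotated start, the interferon-stimulated response element was found in 2 of the 8 class I genes, B2m and H2-T23, and in 3.44% of 32851 promoters. The spelling GAANNGAAA, chosen after the H2-K1 sequence was read, was found in H2-K1 and H2-D1 and in 7.52% of promoters. The kappa B core was present in H2-K1, H2-D1 and B2m, against 20.7% of promoters. TGACG was present in 5 of the 8, against 20.8%, and CCAAT in 7 of the 8, against 37.4%. The gamma-activated site TTCNNNGAA was found in Psmb8, against 8.3% of promoters. The H2-K1 and H2-D1 windows share a run of 47 identical bases before the start. Psmb9 and Tap1 are transcribed in opposite directions, and their windows share 275 of the 300 bases. The TGACG counted for Psmb9 and for Tap1 is the same stretch of DNA, and so is the CCAAT. Each therefore enters the counts above once per gene. A match describes letters in these windows and is not a measured binding site.

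The receptor genes were measured first, since their dose defines the model. Values are log2 of the processed signal above or below the 75th percentile of the same array. Ifnar2, a chain of the type I interferon receptor, stood at 1.29, 1.1, 1.13 and 1.13 in wild-type replicates 1 to 4 and at 2.04, 1.82, 1.88 and 1.86 in Ts1Cje replicates 1 to 4. Ifnar1, the other chain, stood at 1.41, 1.57, 1.35 and 1.55 in wild-type and at 2.07, 2.14, 2.01 and 2.15 in Ts1Cje. Every Ts1Cje array lay above every wild-type array for both chains. The log2 difference was 0.73 for Ifnar2 (SE 0.07, limma adjusted p = 0.0078) and 0.63 for Ifnar1 (SE 0.07, adjusted p = 0.011). The 2 other probes of Ifnar1 gave 0.66 and 0.67. Ifngr2, a chain of the interferon gamma receptor, ranged from 2.68 to 2.80 in wild-type and from 3.22 to 3.35 in Ts1Cje, a difference of 0.53 (SE 0.05, adjusted p = 0.0081). Il10rb, a chain shared by the interleukin-10 and interferon lambda receptors, ranged from -1.77 to -1.33 and from -1.05 to -0.82, a difference of 0.60 (SE 0.10, adjusted p = 0.080). The 95% intervals of all 4 held 0.58 (0.585 before rounding), the log2 of 3 copies over 2. That of Ifnar2, 0.583 to 0.887, held it only at its lower end. When Ts1Cje replicate 4 was left out the adjusted p was 0.0504 for Ifnar2 and for Ifngr2 and 0.059 for Ifnar1, and it was 0.068 for Ifnar1 when Ts1Cje replicate 2 was. With the replicate number as a block the adjusted p was 0.056 for Ifnar2 and 0.087 for Ifnar1 and Ifngr2. Il10rb passed with normexp background correction (0.46, adjusted p = 0.028) and with a trended and robust prior (adjusted p = 0.048).

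None of the 10 class I genes passed an adjusted p of 0.05 in either direction, where 0.175% of all features were called higher in Ts1Cje and 0.0208% lower, 0.196% in all (limma, Benjamini-Hochberg over all features). Over all features 42 were called higher and 5 lower, or 47 and 13 with quantile normalization. H2-D1 and H2-K1 had an unadjusted p under 0.05, both higher in Ts1Cje; 4.15% of all features were higher at that level. Of the 10, 9 had a log2 difference above 0, as did 47.3% of all features. The median over the 10 was 0.19, against -0.0072 over all features and 0.61 over the 4 receptor genes. H2-D1 alone had groups that did not overlap, where 2.42% of all features lay wholly higher in Ts1Cje. The count at an unadjusted p under 0.05 was 1 when wild-type replicate 2 or 4 was left out (9.68% and 7.87% of all features in either direction, against 8.73% with all arrays). Leaving out Ts1Cje replicate 3 gave 4 (7.1%). Of the other wild-type arrays, leaving out replicate 3 gave 3 (8.31%) and replicate 1 gave 5 (8.01%).

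**Figure D1:**
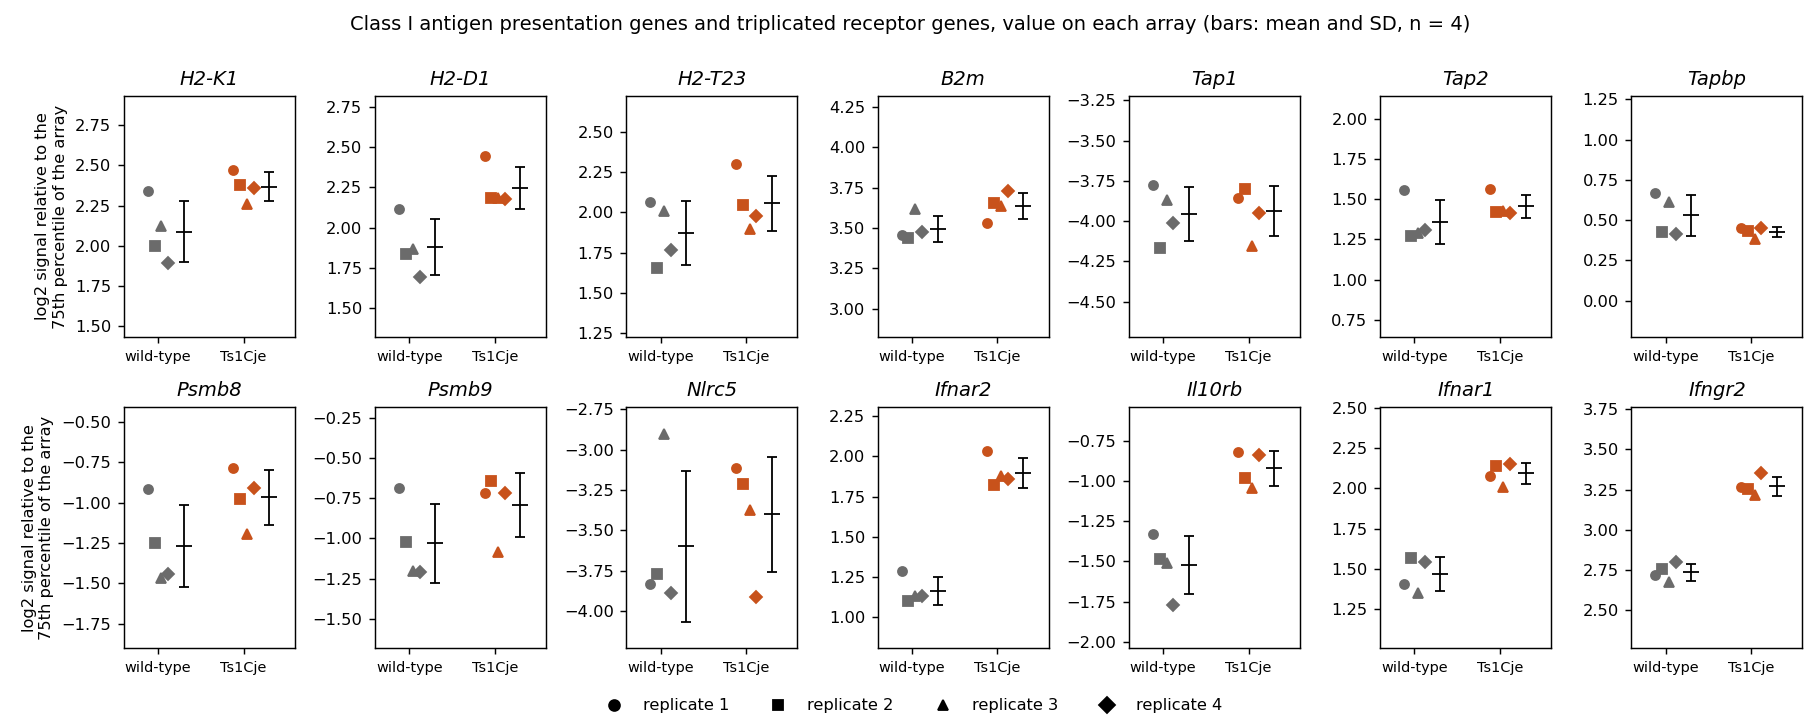
Log2 signal over the 75th percentile of each array (vertical axis) for the 10 class I genes and the 4 triplicated receptor genes, by genotype; symbols are replicates, and the bars give the mean and SD of 4 arrays. Every panel spans the same log2 range. The receptor panels and H2-D1 show no overlap, whereas the other class I panels overlap.

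The classical heavy chains H2-K1 and H2-D1 present peptides to CD8 T cells. H2-D1 stood at 2.12, 1.84, 1.87 and 1.70 in wild-type replicates 1 to 4 and at 2.44, 2.18, 2.18 and 2.18 in Ts1Cje replicates 1 to 4. The lowest Ts1Cje array lay above the highest wild-type array. The difference was 0.37, or 1.29-fold (SE 0.10, 95% interval 0.13 to 0.60, adjusted p = 0.35). It was 0.30 without Ts1Cje replicate 1, the highest of the arrays. Arrays in the first row of the slide, replicates 1 and 2, gave 0.34, and those in the second row 0.40.

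H2-K1 was measured by 10 spots of 1 probe, whose SD over spots was 0.05 to 0.07 within an array. It stood at 2.34, 2.00, 2.13 and 1.89 in wild-type and at 2.47, 2.38, 2.26 and 2.36 in Ts1Cje. Only Ts1Cje replicate 3 lay below a wild-type array, replicate 1, and the SD between wild-type arrays, 0.19, was larger than that between spots. The difference was 0.28, or 1.21-fold (SE 0.10, interval 0.05 to 0.50, adjusted p = 0.49). Its other probe gave 0.29 (SE 0.12). Within the slide rows H2-K1 gave 0.26 and 0.30. The interval of H2-K1 lay above 0 and below 0.58, while that of H2-D1 held 0.58. Class I heavy chains are a family of close copies, so that the probes may also read related transcripts.

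H2-T23 encodes Qa-1, a heavy chain that presents leader peptides of other class I chains to receptors of natural killer cells. Its wild-type values were 2.07, 1.65, 2.01 and 1.77 and its Ts1Cje values 2.30, 2.04, 1.90 and 1.98. Ts1Cje replicate 1 was the only array above all wild-type arrays. The difference was 0.18 (SE 0.12, interval -0.09 to 0.46, adjusted p = 0.67), or 0.10 without Ts1Cje replicate 1. It was 0.31 in the first slide row and 0.05 in the second.

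B2m is the invariant light chain of every class I molecule. It stood at 3.45, 3.44, 3.62 and 3.47 in wild-type and at 3.53, 3.65, 3.64 and 3.73 in Ts1Cje. Ts1Cje replicates 2, 3 and 4 lay above all wild-type arrays, and Ts1Cje replicate 1 lay below wild-type replicate 3. The difference was 0.14 (SE 0.06, interval -0.0011 to 0.29, adjusted p = 0.58), with 0.15 and 0.14 in the slide rows. Among Ts1Cje arrays B2m was lowest on replicate 1, on which all 3 heavy chains were highest.

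The peptide transport genes were spread around 0. Tap2, the second subunit of the transporter, stood at 1.56, 1.27, 1.29 and 1.31 in wild-type and at 1.56, 1.42, 1.42 and 1.42 in Ts1Cje. Replicate 1 was the highest of both groups, and the difference was 0.10 (SE 0.08, interval -0.07 to 0.27, adjusted p = 0.71). Leaving out the wild-type replicate 1 array gave 0.17, and leaving out Ts1Cje replicate 1 gave 0.064. Tapbp, which bridges the transporter and the empty heavy chain, stood at 0.67, 0.43, 0.61 and 0.42 in wild-type and at 0.45, 0.43, 0.38 and 0.45 in Ts1Cje. It was the member with a difference below 0, at -0.10 (SE 0.07, interval -0.26 to 0.06, adjusted p = 0.68), and its Ts1Cje arrays spanned a narrower range than its wild-type arrays. Without wild-type replicate 1 it was -0.06. Tap1, the first subunit, was dim on its 10 spots, between -4.16 and -3.78 in wild-type and between -4.15 and -3.80 in Ts1Cje. The SD over the spots of an array reached 0.56. Its difference was 0.02 (SE 0.11, interval -0.23 to 0.26, adjusted p = 0.97), and its sign turned with normexp, quantile normalization or the array median as centre.

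Psmb8 and Psmb9 replace constitutive catalytic subunits to form the immunoproteasome, which favours peptides that fit class I grooves. Psmb8 stood at -0.92, -1.25, -1.47 and -1.44 in wild-type and at -0.79, -0.97, -1.19 and -0.91 in Ts1Cje. Psmb9 stood at -0.69, -1.02, -1.20 and -1.21 in wild-type and at -0.72, -0.65 (replicate 2), -1.08 and -0.72 in Ts1Cje. Both had a high wild-type replicate 1 and a low Ts1Cje replicate 3, and the groups overlapped. The difference was 0.30 for Psmb8 (SE 0.14, interval -0.01 to 0.62, adjusted p = 0.58) and 0.24 for Psmb9 (SE 0.14, interval -0.09 to 0.56, adjusted p = 0.65). With 1 array left out, Psmb8 ranged from 0.24 to 0.42 and Psmb9 from 0.18 to 0.35. The highest values of both came from leaving out wild-type replicate 1, and the lowest from wild-type replicate 3 for Psmb8 and replicate 4 for Psmb9. Slide rows gave 0.20 and 0.40 for Psmb8 and 0.17 and 0.30 for Psmb9.

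The third induced catalytic subunit, Psmb10, stood at -0.07 (SE 0.05, interval -0.18 to 0.05). The proteasome activator genes Psme1 and Psme2 each stood at -0.03 (SE 0.05). The constitutive subunits that Psmb8, Psmb9 and Psmb10 replace were Psmb5 at -0.08 (SE 0.06), Psmb6 at -0.06 (SE 0.04) and Psmb7 at -0.05 (SE 0.04). Psmb6 and Psmb7 were lower on all Ts1Cje arrays than on any wild-type array, as were 3.7% of all features. The intervals of Psmb10, Psme1 and Psme2 lay below 0.58, as did that of Psmb9, while that of Psmb8 held it. None of these 6 genes passed over all features.

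Nlrc5 is recruited to the X and Y boxes of class I promoters and drives the transcription of class I genes. Its tested probe was dim and variable, at -3.84, -3.77, -2.90 and -3.89 in wild-type and at -3.11, -3.21, -3.37 and -3.91 in Ts1Cje. The highest of the 8 values was wild-type replicate 3, and replicate 4 was the lowest of both groups. The difference was 0.20 (SE 0.26, interval -0.39 to 0.79, adjusted p = 0.83), so that neither 0 nor 0.58 lay outside the interval. Leaving out the wild-type replicate 3 array gave 0.43, and leaving out Ts1Cje replicate 4 gave 0.37. Leaving out wild-type replicates 1, 2 or 4 or Ts1Cje replicates 1 or 2 gave 0.10 to 0.14. The slide rows gave 0.64 and -0.25.

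**Figure D2:**
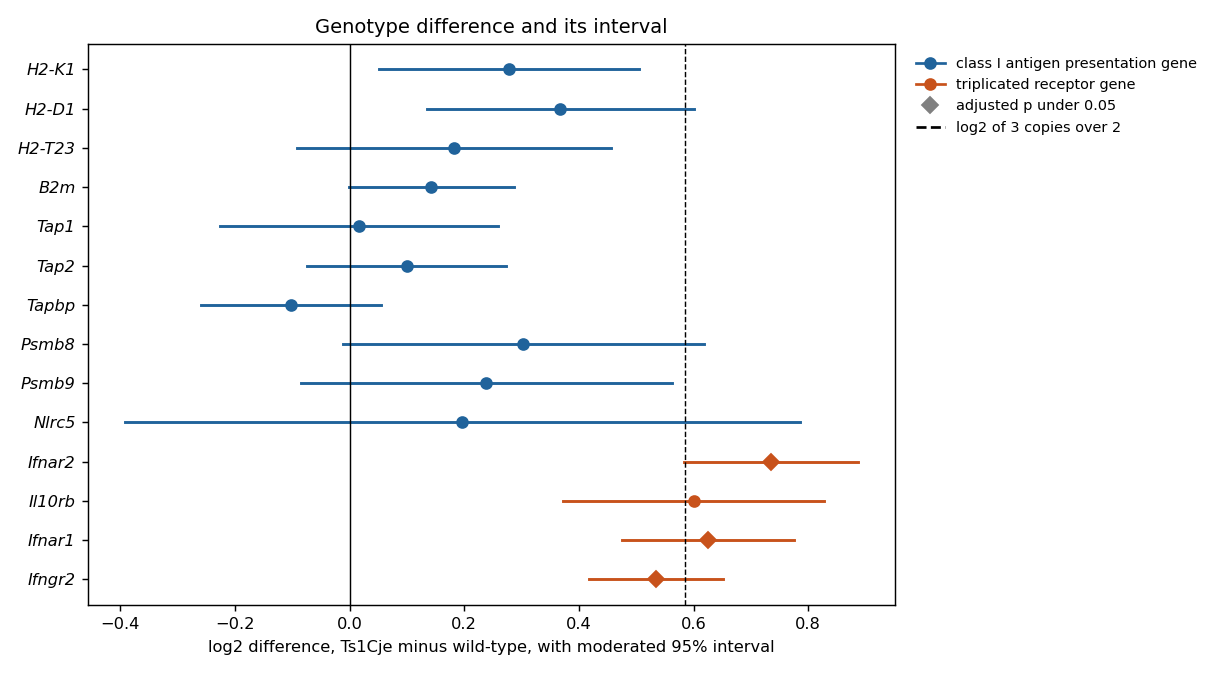
Log2 difference between Ts1Cje and wild-type (horizontal axis) with its moderated 95% interval for each class I gene (blue) and each triplicated receptor gene (orange); diamonds have an adjusted p under 0.05, and the dashed line is the log2 of 3 over 2, 0.58. The intervals of 7 of the 10 class I genes lie below the dashed line, which is only a yardstick of size for them, and all 4 receptor intervals hold it.

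Read against the receptor dose, the upper bounds of 7 of the 10 class I genes lay below 0.58. The class I genes lie outside the triplicated segment, so 0.58 is only a yardstick of size for them. It is not a level that following the receptors would require. The 3 that held 0.58 were H2-D1, Psmb8 and Nlrc5. Intervals of 8 genes held 0, and those of H2-K1 and H2-D1 lay above it. Among Ts1Cje arrays, replicate 1 was the highest for 7 of the 10 class I genes, and it was also the highest for Ifnar2 and Il10rb. Replicate 4 was the highest for Ifnar1, Ifngr2 and B2m. Within wild-type, replicate 1 was the highest for 8 of the 10 class I genes and likewise for Ifnar2 and Il10rb. Receptor values fell into separate clusters by genotype with 4 arrays in each, so no pooled correlation with class I levels is given. With each group's mean removed, Pearson's r over the 8 arrays between the mean of the 4 receptor genes and a class I gene was 0.91 for Psmb8 and 0.80 for Psmb9. It was 0.65 for H2-D1, 0.62 for Tap2 and 0.61 for H2-K1, between 0.34 and 0.39 for H2-T23, Tapbp and Tap1, and below 0 for B2m (-0.39) and Nlrc5 (-0.42). These values carry no test, and the arrays share a slide. The mean of the 7 tested leukocyte markers gave 0.85 for H2-D1 and -0.69 for B2m on the same scale. The receptor mean pools genes whose arrays differ in order. Psmb8, Ifnar2 and Il10rb were highest on replicate 1 of both groups. Ifnar1 was highest on wild-type replicate 2 and Ts1Cje replicate 4, and Ifngr2 on replicate 4 of both groups. The r of the mean therefore does not describe each receptor gene.

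Within genotype most pairs of class I genes varied together. All pairs without B2m or Nlrc5 were above 0. With each group's mean removed, Pearson's r over the 8 arrays, which share a slide, was above 0 for 36 of 45 pairs, with a median of 0.55. It was highest for Psmb8 with Psmb9 (0.93, Spearman's rho 0.83), H2-K1 with H2-D1 (0.91, rho 0.88) and H2-K1 with Tapbp (0.91, rho 0.93). H2-D1 with Tap2 gave 0.89 but a rho of 0.40, where replicate 1 was the highest array of both groups for both genes. B2m gave -0.11 with H2-K1, -0.44 with H2-D1 and -0.49 with Tap2. These values describe 8 arrays and carry no test. Among 15079 other named genes, those with the pattern most like H2-K1 were Nalcn and Pknox2 (r of 0.98 each, differences of -0.02 and 0.0074), and for H2-D1 they were Wnt4 and Gon4l (0.98 each, -0.33 and -0.05).

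**Figure D3:**
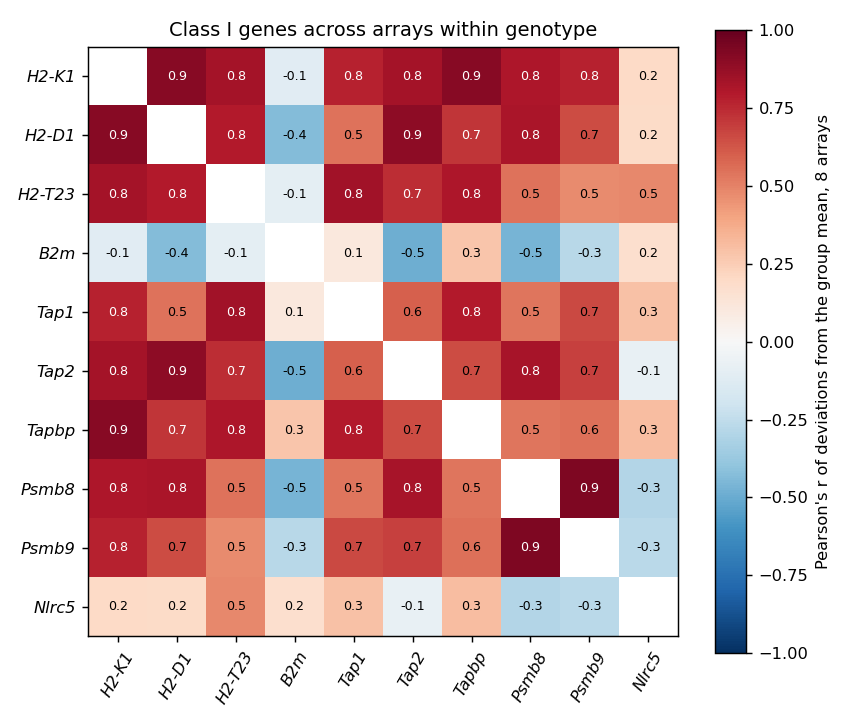
Pearson's r between class I genes (rows and columns) of the deviations from the genotype mean over 8 arrays, from -1 (blue) to 1 (red). Among the 8 genes other than B2m and Nlrc5 all values lie above 0, with 0.93 for Psmb8 with Psmb9, and the B2m row holds values down to -0.49.

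Other genes of the class I pathway were given as a list: 26 of 33 were tested, 16 were above 0, 4 were higher at an unadjusted p under 0.05, and none passed over all features, with a median of 0.06. Over all features 47.3% were above 0 and 4.15% were higher at that level. The 4 were H2-Q7, H2-Q6, H2-Q2 and Cd1d1. H2-Q7, a Qa-2 heavy chain, stood at 1.47, 1.25, 1.37 and 1.21 in wild-type and at 1.92, 1.73, 1.62 and 1.75 in Ts1Cje, with no overlap. Its difference was 0.43 (SE 0.08, adjusted p = 0.14). H2-Q6 stood at 0.36 (SE 0.10) and H2-Q2 at 0.28 (SE 0.11). The CD1 gene Cd1d1, which presents lipids, stood at 0.19 (SE 0.05), also with no overlap, where 2.42% of all features lay wholly higher in Ts1Cje. Of 10 class II genes, which present peptides from outside the cell, 9 were tested and 5 were above 0, with a median of 0.03. The class II mean log2 value was lowest on wild-type replicate 2, at -2.79, against -2.32 to -1.90 on the other arrays. The class II coactivator Ciita stood at -0.34 (SE 0.12) and H2-Oa at -0.49 (SE 0.09, adjusted p = 0.10). Both were dim. Ciita had means of -4.23 in Ts1Cje and -3.89 in wild-type, and H2-Oa of -4.02 and -3.53. Both were lower on all Ts1Cje arrays than on any wild-type array, as were 3.7% of all features. At an unadjusted p under 0.05, these were the only class II genes past it, both lower, as were 4.57% of all features.

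Downstream of the receptors, none of 16 signalling genes passed over all features, and their median was 0.07. Stat2 stood at 0.13 (SE 0.11) and Irf9 at 0.26 (SE 0.11), while Irf1 stood at -0.09 (SE 0.10), Jak1 at 0.03 (SE 0.06), Jak2 at -0.15 (SE 0.06), Tyk2 at -0.02 (SE 0.12) and Ifngr1 at 0.07 (SE 0.10). Usp18, an inhibitor of type I receptor signalling, stood at 0.49 (SE 0.12, adjusted p = 0.32) with no overlap between groups. Interferon-stimulated genes had the same median as the class I genes, 0.19: 28 of 30 were tested, 25 were above 0, 9 were higher at an unadjusted p under 0.05 and 6 lay wholly higher in Ts1Cje. Over all features 47.3% were above 0, 4.15% were higher at that level and 2.42% lay wholly higher in Ts1Cje. The secreted glycoprotein gene Lgals3bp was the 1 that passed (0.62, SE 0.07, adjusted p = 0.019), and it had been put on the list with its value in these data known. The list as a whole, like that of the class I genes, was also chosen with earlier results of these data known. Oas2, a sensor of double-stranded RNA, stood at 0.72 (SE 0.10, adjusted p = 0.053), with -3.07 to -2.94 in wild-type and -2.53 to -2.02 in Ts1Cje.

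**Figure D4:**
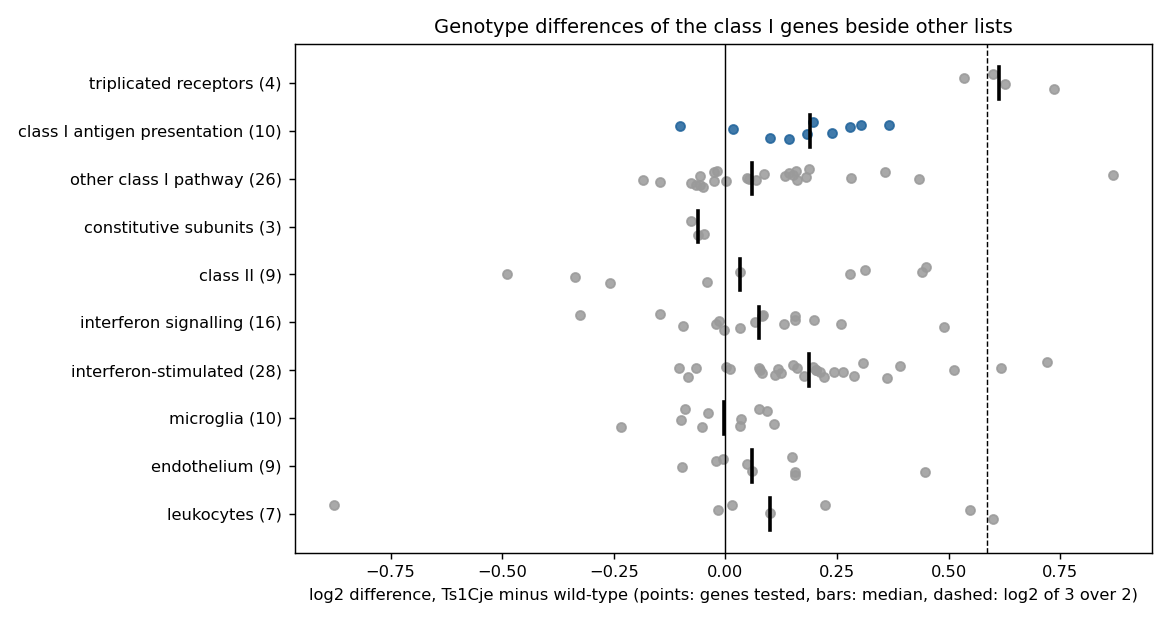
Log2 difference between Ts1Cje and wild-type (horizontal axis) of every tested gene of 10 lists, with the number tested in parentheses; black bars are medians and the dashed line is the log2 of 3 over 2. The class I genes (blue) lie between -0.10 and 0.37 with a median of 0.19, and the 4 receptor genes lie between 0.53 and 0.73.

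Bulk RNA cannot tell more cells of a type from more RNA per cell, so markers of cells that the tissue could hold were set beside these values. Of 10 microglial markers 5 were above 0, with a median of -0.0028, and their summed level (in multiples of the 75th percentile) spanned 243 to 255 in Ts1Cje and 211 to 277 in wild-type. Such a sum follows its brightest probe, here that of Siglech. The mean log2 value of the 10, which weights them equally, spanned 2.82 to 2.92 in Ts1Cje and 2.79 to 2.94 in wild-type. Tmem119 (-0.23, SE 0.09) was the 1 microglial marker past an unadjusted p of 0.05 and was lower, as were 4.57% of all features. Of 9 endothelial markers 6 were above 0, with a median of 0.06, and their summed level spanned 50.2 to 75.4 in Ts1Cje and 44.5 to 53.2 in wild-type. Their mean log2 value spanned 0.99 to 1.31 in Ts1Cje and 0.93 to 1.09 in wild-type. Tek (0.16, SE 0.07) and Ly6c1 (0.45, SE 0.19) were higher at an unadjusted p under 0.05, as were 4.15% of all features. The endothelial surface antigen gene Ly6c1 stood at 5.36 on Ts1Cje replicate 1 and between 4.50 and 4.66 on the other Ts1Cje arrays. Of 10 leukocyte markers 7 were tested. The T cell genes Cd3g, Cd8a and Cd8b1 and the B cell gene Ms4a1 did not reach the background filter in Ts1Cje or in wild-type. The T cell genes Cd3e and Cd4, the lymphocyte granule gene Nkg7 and the pan-leukocyte gene Ptprc did, with differences of 0.10 (SE 0.08), 0.01 (SE 0.06), -0.02 (SE 0.08) and 0.22 (SE 0.21).

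Replicate 1 stood apart for some leukocyte markers, most by S100a8 and S100a9 in Ts1Cje and by Itgal in wild-type. The mean of the 7 was -0.03 on Ts1Cje replicate 1 and -0.91 on wild-type replicate 1, and between -1.87 and -1.35 on the other 6 arrays. The neutrophil gene S100a9 stood at 2.43 on Ts1Cje replicate 1 and between -3.44 and -2.44 on the other Ts1Cje arrays, and S100a8 likewise at 1.35 against -5.17 to -4.33. On wild-type replicate 1 the integrin gene Itgal stood at -1.60 against -4.57 to -2.85 on the other wild-type arrays. Among wild-type arrays Ptprc (-3.36), S100a9 (-1.40) and S100a8 (-3.28) were also highest on replicate 1. On the others they ranged from -4.41 to -3.91, -2.88 to -1.81 and -4.46 to -3.36. Cd3e, Cd4 and Nkg7 were not highest on wild-type replicate 1. Itgal stood at -4.08 on Ts1Cje replicate 1. On the same array Cd3e stood at 0.77 (0.53 to 0.70 on the other Ts1Cje arrays), Cd4 at 2.03 (1.76 to 1.89), Nkg7 at 0.76 (0.63 to 0.87) and Ptprc at -3.48 (-3.85 to -3.71). The same replicates were the highest for most class I genes, and the part of leukocytes in the class I values was not tested. Leaving both arrays out, a choice made after seeing the data, removes all else about these arrays as well. Without replicate 1 of both groups, H2-D1 stood at 0.38, H2-K1 at 0.33, Psmb8 at 0.36, Psmb9 at 0.33, H2-T23 and B2m at 0.16 and Tap2 at 0.13. Tap1 stood at 0.05, Nlrc5 at 0.02 and Tapbp at -0.06. None of the 10 passed over all features in that fit, 5 had an unadjusted p under 0.05, against 9.42% of all features in either direction, and the median was 0.16, against -0.01. In that fit the adjusted p was 0.14 for Ifnar1, 0.11 for Ifngr2 and 0.040 for Ifnar2. Markers of hippocampal neurons were present: Prox1, Wfs1, Neurod6, Fibcd1 and C1ql2 were above background on all 8 arrays. None passed over all features, and 3 had groups that did not overlap. Over all features 2.42% lay wholly higher in Ts1Cje and 3.7% wholly lower. Wfs1, a marker of CA1, was higher in Ts1Cje (0.30, SE 0.07, adjusted p = 0.22), and the dentate marker C1ql2 (-0.25, SE 0.05, adjusted p = 0.15) and the CA1 marker Fibcd1 (-0.19, SE 0.05, adjusted p = 0.32) were lower. All 4 ependymal markers were below 0, with a median of -0.37. Tmem212 stood at -0.73 (SE 0.15, adjusted p = 0.18) with no overlap and Ccdc153 at -0.51 (SE 0.14, adjusted p = 0.34). The part of these cells in the class I values was not tested.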

How the data were processed

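Cy3-labelled RNA was hybridised to 8 one-colour arrays on 1 slide, 1 array per sample. The authors deposited linear intensity per spot from Agilent Feature Extraction 10.10.1.1, background-corrected and not normalized between arrays, with probes designed on mm9, per the file headers. Control and outlier spots were dropped, and 0 were saturated. Spots of 1 probe were averaged as log2 values, from which the 75th percentile of that array was subtracted. Between 59.9% and 63.1% of probes were well above background per array, and the number of arrays limits the precision. The filter kept probes that were above background in every replicate of wild-type or of Ts1Cje, and each gene was represented by its brightest kept probe. Accessions were matched to GRCm38.p6 names for 27235 probes. The comparison of genotypes used limma 3.58.1 (R 4.3.3) without a block. Calls need a Benjamini-Hochberg adjusted p under 0.05. Class I genes and lists were chosen with earlier results of these data known. Named were all class I, receptor and main signalling genes, the proteasome genes, and up to 4 genes of each other list with the smallest p; some of these are not reported here. Wild-type arrays lay in slide columns 1 and 3 and Ts1Cje arrays in columns 2 and 4, so column and genotype cannot be told apart. Alternatives were normexp (offset 50) on median signals, other scalings, filters, probe rules and variance models, blocks, and arrays left out. Plots used matplotlib 3.10.9.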

Additional observations from a re-analysis of the deposited data

Results flagged for a closer look

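Of 60 sets of 4 arrays examined (class I genes, receptor genes and list means), 8 had 1 array far from the other 3, by the gap to its neighbour over the whole range, where 3 are expected by chance. Ts1Cje replicate 1 was the high array for H2-D1 (0.983), Tap2 (0.956), the mean of the leukocyte markers (0.886) and the mean of the class I binding partners (0.885). Wild-type replicate 1 was the high array for Tap2 (0.886) and Ifnar2 (0.835). Wild-type replicate 3 was high for Nlrc5 (0.879), and Ts1Cje replicate 3 was low for Psmb9 (0.836).

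The second probe of Nlrc5, which was not tested, was above background on 2 arrays, Ts1Cje replicates 3 and 4. It stood at -1.89 and -1.57 there, against -6.91 to -5.69 on the other Ts1Cje arrays and -7.22 to -5.56 on the wild-type arrays. The brighter Nlrc5 probe was not high on these arrays (-3.37 and -3.91). Of 1107 probes above background on 2 arrays, 70 were so on the same pair, and 10 of these were at least 8-fold above every other array.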

How the results depend on the processing

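No class I gene passed an adjusted p of 0.05 under any of the 19 alternatives run per gene, with each probe as a feature or at an adjusted p under 0.1, while 2 passed an unadjusted 0.05. That count was 1 with the array median as centre (10.5% of all features), 3 with normexp (7.74%) or quantile normalization (8.63%), and 4 with array weights (12%), a trended and robust prior (9.15%) or slide row as a block (9.11%), against 8.73% of all features in the analysis reported. Of the 10, 9 kept the sign of their difference in every alternative. H2-D1 ranged from 0.30 to 0.45, H2-K1 from 0.21 to 0.36, Psmb8 from 0.24 to 0.42 and B2m from 0.09 to 0.19. Tap1 turned to -0.020 with normexp, -0.036 with quantile normalization and -0.034 with the array median as centre, and ranged from -0.053 to 0.087 with 1 array left out. The cause was not tested. Calls over all features numbered 47, or 25 with the array median as centre, 23 with no filter on dim probes, 89 with array weights, 71 with a trended and robust prior, 98 at an adjusted p under 0.1, and 4 to 44 with 1 array left out. Chosen after seeing the data, leaving out replicate 1 of both groups gave 5 calls, and slide row as a block changed no class I call.

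With the replicate number as a block there was 1 call and none among the class I genes. In that fit 3 of the 10 class I genes, H2-K1, H2-D1 and Psmb8, passed an unadjusted 0.05, against 11.2% of all features. Without the block 2 did, H2-K1 and H2-D1, against 8.73% of all features. Same-numbered samples had correlated deviations (0.24, 0.19, 0.11 and 0.05 for replicates 1 to 4), and no label ties equal numbers to a litter.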
